A study of Homo sapiens with 18 samples.

Results

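The comparison at 24 h set 3 libraries of sheared PC-3 cells against 3 libraries of static PC-3 cells, 6 of the 18 libraries of the series. PC-3 is an established human prostate cancer line that does not depend on androgen. Detached cells at 2000000 per mL were driven through a syringe with a 30-gauge needle at 250 µL per second, which exposes them to fluid shear stress, while the static cells stayed in suspension. Sheared and static cells were then kept unattached at 1000000 per mL in wells coated with poly-HEMA, in DMEM with insulin, transferrin, selenium and bovine serum albumin, and RNA of the cytosolic fraction was taken at 24 h. The libraries were chosen by their labelled treatment and time. Sheared and static libraries with the same replicate number share a pool of cells and form pairs 1, 2 and 3. The 3 h and 12 h groups had the same line, treatments and wells, with 3 pairs each from other pools. All values describe 1 line, and counts of living or dividing cells in the wells are not analysed here.

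Fluid shear stress is the drag of moving liquid on a cell, and tumour cells meet it when they enter the blood. The series asks how short pulses of it bear on metastatic potential and metabolism. E2F factors switch on genes of DNA synthesis, and a complex that binds CHR elements, with NF-Y at CCAAT boxes, controls genes of mitosis. Interferon signals reach their target genes through STAT and IRF factors, and the SREBP factors keep genes of cholesterol and fatty acid synthesis active when sterols are scarce.

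The 24 h libraries held 16576539 to 21976621 counts, which limits the precision for genes of low abundance. One library stood apart. Sheared library 3 lay at 81.5 on the first principal component, which held 47.2% of the variance, while the other 5 lay between -41.0 and 12.8. It had the lowest TMM factor (a scaling factor for differences in RNA composition) of the 6, 0.721 against 0.888 to 0.994, and 17007 detected genes against 17585 to 17784. KRT8, KRT18 and KRT19, keratins of PC-3 cells, had 583 counts per 1000000 (CPM) or more in each, whereas TGFBI, also on the PC-3 list, stayed below 3 CPM. Of 12 markers of androgen-dependent prostate cells, 5 were under 1 CPM in each library, KLK2 among them at 0 counts, whereas others were abundant, such as SLC45A3 with 217 to 264 CPM in the static libraries. Where a named gene lost its call without pair 3, the pair of sheared library 3, this is stated. The largest shifts in size without that pair are given too, but smaller shifts are not all given.

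In sheared cells 1387 genes (9.13% of 15189 tested) were higher and 1225 (8.07%) were lower at an adjusted p below 0.05 (edgeR, pool as a block). These shares are the background for each count of list members below. A change of at least 2-fold was found for 339 (2.23%) upward and 225 (1.48%) downward, the second of which was 413 without pair 2 and 123 without pair 3. The median log2 fold change of all tested genes was -0.02. Of the 2612 called genes, 2528 moved in 1 direction in all 3 pairs. The paired test favours such genes, so this count is no separate check of the calls. With total counts in place of TMM factors the median moved by -0.16 to -0.18, and 24.5% of the calls were upward (782 higher, 2410 lower) against 53.1% here, so the balance of rises and falls depends on the scaling. Of the lists described, those with 0 calls in a direction at 24 h had 0 there by DESeq2 too, and 0 at an unadjusted p below 0.05 except for 1 interferon-stimulated and 1 haematopoietic gene upward and for 1 recombination, 1 glycolysis and 3 membrane repair genes downward.

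Pair 3 moved more than the others. The median size of the log2 ratio over all genes was 0.285 in pair 1, 0.300 in pair 2 and 0.445 in pair 3, and 1162, 1337 and 2742 genes differed by at least 2-fold within the pair. Without pair 3, 941 genes (6.09% of 15448) were higher and 609 (3.94%) were lower. Of the genes called with all pairs, 841 of those higher (60.6%) and 511 of those lower (41.7%) were still called. None of the 2612 changed sign among those tested both ways, and 0 were called in the opposite direction. The second fit keeps pairs 1 and 2, which also gave the calls, so it is no independent check. In the authors' deposited table for this comparison 862 genes were higher and 483 lower at an adjusted p below 0.05, among 14408 genes with an adjusted p. Of these, 850 and 482 were called in the same direction here. They made up 61.3% of the genes called higher here and 39.3% of those called lower. Both results come from the 24 h libraries of this series, so the overlap is no independent check. Genes described as called here that did not pass there include LDHA, GAPDH, CDKN1A, HMGCS1, POLR1A, MUC2, ANXA1, ANXA2, COX7B, TRIB3, CXCL6 and TUG1.

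**Figure D1:**
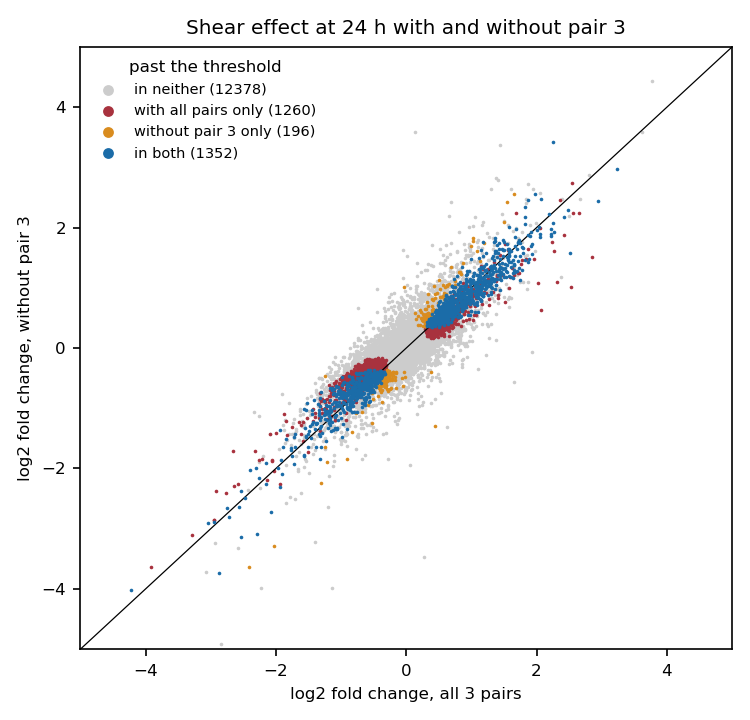
Log2 fold change of sheared over static cells at 24 h for 15186 genes, from the fit with all 3 pairs (x axis) and from the fit without pair 3 (y axis); 11 points lie outside the axes. Blue points are the 1352 genes past the threshold in both fits, red the 1260 with all pairs only and orange the 196 without pair 3 only; the black line marks equal values.

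Genes of mitosis rose in every pair. Sheared cells held more of all 42 mitotic and G2/M genes tested, with a median log2 fold change of 1.31, against 9.13% of all tested genes. The list medians were 1.06, 1.09 and 1.70 in pairs 1, 2 and 3, and without pair 3 all 42 remained called, with a median of 1.12. The 42 genes together reached 1264, 1190.0 and 1722 CPM in static libraries 1, 2 and 3 and 2399, 2477 and 4768 CPM in the sheared ones (by total counts). The lowest sheared library thus lay above the highest static one, although static library 3 was itself above the other static libraries. In bulk RNA, more cells of a kind and more RNA in each such cell cannot be told apart.

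CDK1 (Gene ID 983), the kinase that starts mitosis, had 34.9, 44.3 and 84.9 CPM in the static libraries of pairs 1, 2 and 3 and 109, 192 and 625 CPM in the sheared libraries of the same pairs, and further genes are given in this order. It rose within each pair, most in pair 3, and the groups did not overlap. Its log2 fold change was 2.22 ± 0.17 (SE, adjusted p = 8.52e-07, n = 3 pairs) and 1.90 without pair 3. Its log2 ratios were 1.64, 2.12 and 2.88 in pairs 1, 2 and 3. Each SE and p here rests on a spread estimated over all 18 libraries and does not measure the spread of the 24 h pairs alone. UBE2C, which loads ubiquitin for the anaphase-promoting complex, had 30.7, 33.6 and 94.2 CPM without and 97.1, 155 and 418 CPM with shear (2.01 ± 0.12, adjusted p = 6.15e-08). In each pair the sheared library held more than 3 times the UBE2C of its static partner. CCNB1, the cyclin partner of CDK1, had 53.9, 61.9 and 90.2 CPM in static cells and 106, 111 and 235 CPM in sheared cells (1.07 ± 0.11, adjusted p = 6.63e-06). MKI67, the gene of the Ki-67 proliferation marker, had 37.1, 36.0 and 44.2 CPM in static libraries and 76.5, 54.4 and 138 CPM in their sheared partners (1.10 ± 0.16, adjusted p = 0.000171). Both rose in all 3 pairs with no overlap of the groups.

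Other members span the machinery of the spindle and the kinetochore, the structure that ties a chromosome to spindle fibres. AURKB, the kinase of the chromosomal passenger complex, had 7.48, 7.36 and 12.6 CPM without and 20.8, 28.1 and 63.4 CPM with shear (1.93 ± 0.17, adjusted p = 1.61e-06). Its partners CDCA8 (1.63 ± 0.13) and BIRC5 (1.19 ± 0.11) rose too. CENPA, the histone that marks centromeres, had 23.9, 17.3 and 31.3 CPM in static cells and 66.1, 42.3 and 89.8 CPM in sheared cells (1.43 ± 0.12, adjusted p = 1.33e-06), and NUF2, which holds spindle fibres at the kinetochore, rose by 1.46 ± 0.14. SKA1, which works beside NUF2, rose by 1.73 ± 0.17. CDC20, the activator of the anaphase-promoting complex, rose by 1.29 ± 0.13 and the mitotic kinase PLK1 by 1.35 ± 0.14. BIRC5, CDC20 and PLK1 were singled out after their values were seen.

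The 12 mitotic kinesins, motors that build and move the spindle, all rose, with a median of 1.27 and pair medians of 1.07, 1.13 and 1.56. KIF2C, which takes spindle fibres apart at their ends, had 27.7, 26.8 and 46.5 CPM in static libraries and 73.9, 63.0 and 207 CPM in their sheared partners (1.61 ± 0.15, adjusted p = 2.67e-06). KIFC1, which draws spindle poles together, had 17.2, 15.2 and 26.9 CPM without and 42.3, 41.3 and 99.1 CPM with shear (1.55 ± 0.14, adjusted p = 1.93e-06). KIF14, a motor of cytokinesis, had 28.3, 11.4 and 25.7 CPM in static cells and 70.3, 23.4 and 71.0 CPM in sheared cells (1.28 ± 0.12, adjusted p = 2.67e-06). Pool 2 had the lowest KIF14 in either group, so the KIF14 groups overlapped although each pair rose.

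Many, though not all, promoters of these genes hold 2 short elements. They are shown for 3 members chosen because they hold both within the 120 bases before the start (RefSeq, GRCh38.p14, read along the gene). Capitals mark CCAAT, or ATTGG on the other strand, and TTTGAA, a CHR element.
CDCA8, chr1:37692396-37692515, plus strand: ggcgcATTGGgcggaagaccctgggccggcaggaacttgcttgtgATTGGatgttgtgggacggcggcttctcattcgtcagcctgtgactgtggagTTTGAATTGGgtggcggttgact
CDC20, chr1:43358861-43358980, plus strand: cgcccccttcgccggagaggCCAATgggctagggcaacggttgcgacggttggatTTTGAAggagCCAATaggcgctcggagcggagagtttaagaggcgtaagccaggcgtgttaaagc
PLK1, chr16:23678769-23678888, plus strand: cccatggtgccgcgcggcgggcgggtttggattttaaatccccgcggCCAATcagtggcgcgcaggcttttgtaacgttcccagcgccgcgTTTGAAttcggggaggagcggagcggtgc

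Within the 250 bases before the start, and on either strand, CCAAT together with TTTGAA or TTCGAA was found in 52.9% of the 34 G2/M genes with a promoter entry and 41.7% of the 12 kinesins. The share was 3.91% of the 11904 tested genes with an entry and 5.24% of all 27305 promoters. Among all genes higher at 24 h it was 9.69%, and among those lower 3.05%. CCAAT alone was found in 79.4% of the G2/M promoters and 34.8% of those of tested genes. For the 18 promoters of cholesterol genes, a list that fell, it was 83.3%. In CDCA8 the last ATTGG overlaps the TTTGAA by 1 base. A match is a description of the sequence and shows no binding.

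**Figure D2:**
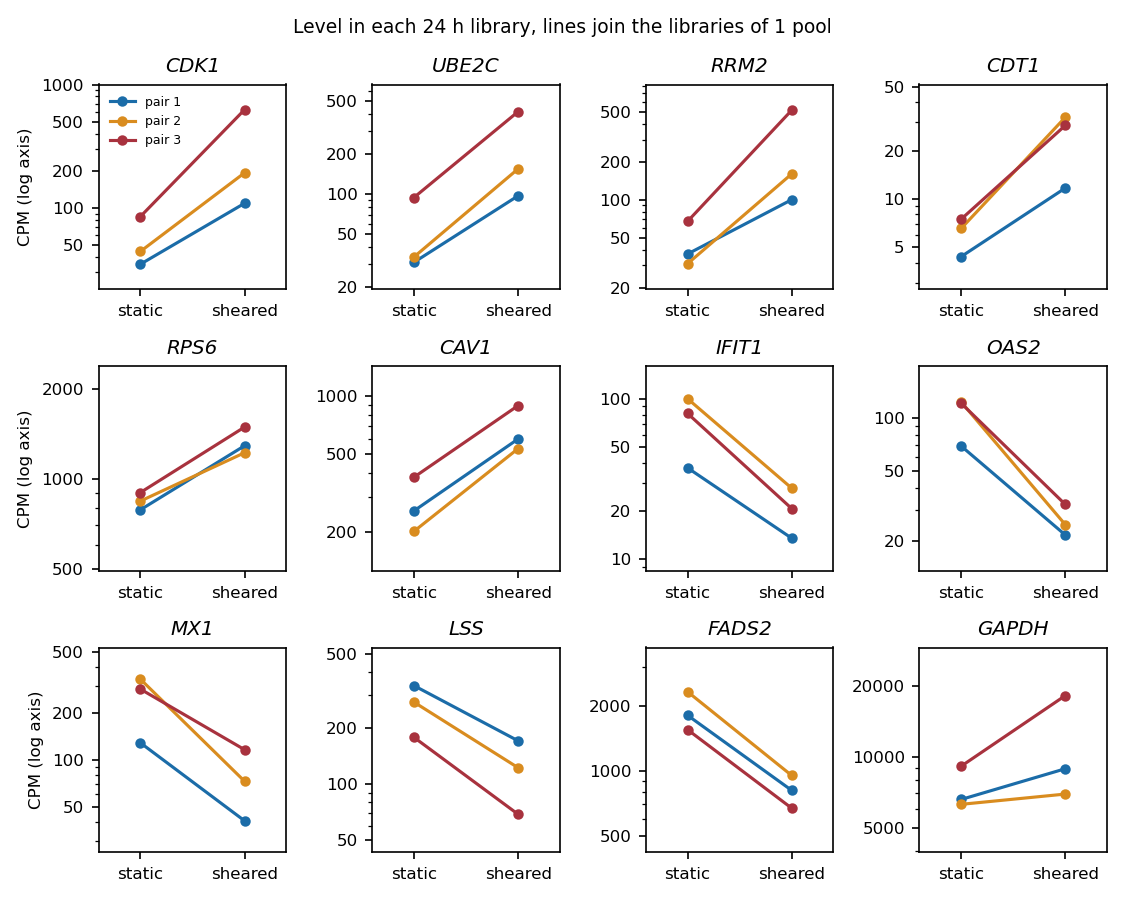
CPM (log axis, scaled by TMM) of 12 genes in the static and sheared libraries at 24 h, with a line for each pool. CDK1, UBE2C, RRM2, CDT1, RPS6 and CAV1 rise in all 3 pairs, IFIT1, OAS2, MX1, LSS and FADS2 fall in all 3, and GAPDH rises most in pair 3.

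Genes of DNA replication rose less evenly. Of the 43 genes of the G1/S and DNA replication list, 33 were higher and 0 lower, with a median of 0.87. The pair medians were 0.23, 1.43 and 0.94, so pool 2 moved most and pool 1 least, and 29 of 43 genes had a positive ratio in pair 1. The count was 38 without pair 1, 20 without pair 2, 23 without pair 3 and 17 with the 24 h libraries fitted alone.

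RRM2, the regulated subunit of ribonucleotide reductase, which makes the building blocks of DNA, had 37.0, 31.0 and 67.2 CPM in static libraries and 100, 160.4 and 515 CPM in their sheared partners. It rose in each pair without overlap, by 2.26 ± 0.20 (adjusted p = 6.63e-06). CDT1, which licenses replication origins, had 4.37, 6.55 and 7.47 CPM without and 11.7, 32.3 and 28.7 CPM with shear (1.91 ± 0.19, adjusted p = 2.81e-06). PRIM1, the primase that starts each new strand, had 2.28, 4.44 and 4.50 CPM in static cells and 3.87, 20.3 and 17.95 CPM in sheared cells (1.77 ± 0.21, adjusted p = 2.34e-05). Its sheared library 1 lay within the static range, and the other sheared libraries lay far above it. TK1 and TYMS, enzymes of thymidine supply, rose by 1.22 ± 0.13 and 1.38 ± 0.16. PCNA, the sliding clamp of DNA polymerases, had 27.0, 35.7 and 39.0 CPM in static libraries and 24.1, 119.6 and 53.6 CPM in their sheared partners. It was lower in sheared library 1 and higher in the other pairs, and it did not pass the test (0.70 ± 0.28, adjusted p = 0.124).

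Genes of homologous recombination and Fanconi repair, which mend broken or crosslinked DNA, followed the same order of pools. Of 23 tested, 19 were higher and 0 lower (17 without pair 3, 10 with the 24 h libraries alone), with a median of 1.12 and pair medians of 0.49, 1.34 and 1.25. RAD54L, a motor protein of strand exchange, had 4.01, 6.02 and 8.70 CPM without and 7.34, 27.8 and 36.7 CPM with shear (1.80 ± 0.21, adjusted p = 2.09e-05). The helicase BRIP1 rose by 1.49 ± 0.18 and FANCG by 1.30 ± 0.15. MND1, HELLS and DTL are not on that recombination list or in its counts. MND1, better known from meiotic recombination, had 1.62, 1.29 and 2.61 CPM in static cells and 4.69, 10.0 and 18.3 CPM in sheared cells and was among the largest rises (2.49 ± 0.27, adjusted p = 8.19e-06). HELLS, a chromatin remodeller, had 1.32, 1.11 and 0.819 CPM in static libraries and 1.90, 7.63 and 6.68 CPM in their sheared partners, and DTL, an adaptor of the CUL4 ubiquitin ligase, had 1.44, 1.99 and 2.00 CPM without and 1.70, 17.5 and 9.59 CPM with shear. Both rose (2.22 ± 0.33 and 2.19 ± 0.34), mainly in pairs 2 and 3, and HELLS was at 2.89 without pair 1 and DTL at 1.56 without pair 2. Sequence TTTGGCGC or TTTCGCGC, a form of the E2F site, was found in 19.4% of the 36 G1/S promoters against 1.68% of those of tested genes.

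Of 15 inhibitors of the cell cycle tested, 3 were higher and 2 lower, against 9.13% and 8.07% of all tested genes. Leaving out 1 pair gave 2 and 1 without pair 1, 3 and 1 without pair 2 and 0 and 3 without pair 3. CDKN2B, which encodes the CDK4 and CDK6 inhibitor p15, had 162, 123 and 123 CPM in static cells and 101, 64.0 and 65.8 CPM in sheared cells and fell in all 3 pairs (-0.84 ± 0.11, adjusted p = 5.89e-05). CDKN1A, which encodes p21, had 100, 71.5 and 100.3 CPM in static libraries and 71.0, 37.1 and 93.1 CPM in their sheared partners (-0.51 ± 0.14, adjusted p = 0.0154). The drop in CDKN1A was small in pair 3, and its call was lost without pair 1 or without pair 2. PC-3 cells lack functional p53, and of 17 genes known as p53 targets 6 were lower and 1 higher (4 and 0 without pair 1 or pair 3, 4 and 1 without pair 2). TP53INP1, a target with roles in autophagy, had 75.8, 52.4 and 56.3 CPM without and 33.8, 15.7 and 17.95 CPM with shear and fell by more than 2-fold in each pair (-1.51 ± 0.15, adjusted p = 3.15e-06). TNFRSF10B, a receptor for the death ligand TRAIL, fell by 0.63 ± 0.10 on the log2 scale.

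Interferon-stimulated genes fell. Of 43 tested, 37 were lower and 0 higher, against 8.07% of all tested genes, and the median was -1.08. The pair medians were -1.03, -1.50 and -1.01, and 37 were lower without pair 3, where the median was -1.23. The 43 genes together reached 2696, 4878 and 4479 CPM, by total counts, in static libraries 1, 2 and 3 and 1429, 2083 and 2327 CPM in the sheared ones. Each sheared library lay below every static one. The 6 that did not pass were HERC5 (-0.57), EPSTI1 (-0.47), IRF1 (-0.25), IFITM3 (-0.23), ISG20 (-0.16) and IFITM2 (0.25).

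IFIT1 (Gene ID 3434), which binds foreign RNA caps, had 37.2, 101 and 81.5 CPM in static cells and 13.5, 27.8 and 20.7 CPM in sheared cells. It fell in each pair and the groups did not overlap (-1.77 ± 0.13, adjusted p = 4.94e-07). OAS2, which makes the messenger that activates RNase L, had 69.3, 123 and 121 CPM in static libraries and 21.6, 24.7 and 32.2 CPM in their sheared partners (-1.97 ± 0.15, adjusted p = 4.94e-07). MX1, an antiviral GTPase, had 129, 333 and 287 CPM without and 40.6, 73.0 and 117 CPM with shear (-1.72 ± 0.14, adjusted p = 8.68e-07). Static library 1 was the lowest static library for all 3 genes, yet it stayed above each sheared one. The related MX2 had 6.29, 12.97 and 17.4 CPM in static cells and 0.680, 2.09 and 2.99 CPM in sheared cells and was one of the largest falls (-2.72 ± 0.23, adjusted p = 1.33e-06). CMPK2, a mitochondrial nucleotide kinase induced by interferon, had 18.6, 36.2 and 39.0 CPM in static libraries and 5.78, 7.03 and 4.30 CPM in their sheared partners (-2.40 ± 0.21, adjusted p = 1.61e-06). BST2, which tethers budding virus to the cell, had 9.28, 29.6 and 30.9 CPM without and 1.43, 2.86 and 14.04 CPM with shear (-2.28 ± 0.34, adjusted p = 0.000362). Sheared library 3 lay within the static range for BST2, and without pair 3 its log2 fold change was -3.09.

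The interferon element is visible in the promoters of IFIT1 and of ISG15, a ubiquitin-like modifier that had 365, 848 and 684 CPM in static cells and 153, 277 and 338 CPM in sheared cells (-1.30 ± 0.12, adjusted p = 2.47e-06; a gene singled out after its values were seen). Each is given as the 120 bases before the start (RefSeq, GRCh38.p14), with a GAAA followed after any 2 bases by another GAAA, or the complement of this, in capitals.
IFIT1, chr10:89392503-89392622, plus strand: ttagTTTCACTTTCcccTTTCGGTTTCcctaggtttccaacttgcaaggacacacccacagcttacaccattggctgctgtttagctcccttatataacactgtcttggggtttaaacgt
ISG15, chr1:1013377-1013496, plus strand: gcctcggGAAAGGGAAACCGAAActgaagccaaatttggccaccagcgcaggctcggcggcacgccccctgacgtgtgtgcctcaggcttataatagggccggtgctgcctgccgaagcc

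Both hold this element more than once, and in ISG15 the copies overlap. On either strand of the 250 bases before the start, it was found in 55.9% of the 34 interferon-stimulated genes with an entry, against 2.39% of tested genes, 4.98% of all genes lower at 24 h and 1.28% of those higher. Of 15 antigen presentation genes of MHC class I, 2 were lower and 0 higher, against 8.07% and 9.13% of all tested genes. The count lower was 1, 0 and 1 without pair 1, 2 and 3 and 5 with total counts.

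Genes of cholesterol synthesis and uptake also fell. Of 25 tested, 18 were lower and 0 higher, with a median of -0.60 and pair medians of -0.50, -0.83 and -0.53. The count was 19 without pair 3 and 11 with the 24 h libraries alone. LSS, which closes the sterol rings to lanosterol, had 337, 275 and 178 CPM in static libraries and 170.5, 122 and 68.9 CPM in their sheared partners (-1.17 ± 0.11, adjusted p = 2.67e-06). It fell in each pair and the groups did not overlap, though sheared library 1 came close to static library 3. DHCR7, which makes the last step to cholesterol, had 535, 617 and 437 CPM without and 286, 320.4 and 258 CPM with shear (-0.87 ± 0.12), and FDPS, which makes farnesyl diphosphate, fell by 0.72 ± 0.11 on the log2 scale. TM7SF2, a sterol reductase, had 122, 126 and 85.2 CPM in static cells and 55.6, 71.9 and 24.5 CPM in sheared cells (-1.23 ± 0.16). HMGCS1, at the entry of the mevalonate pathway, had 395, 219 and 163 CPM in static libraries and 248, 86.1 and 159 CPM in their sheared partners (-0.68 ± 0.18, adjusted p = 0.0206). It hardly moved in pair 3, without which its log2 fold change was -0.99, and its call was lost without pair 1 or without pair 2.

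Fatty acid genes under the same regulators fell as well. Of 19 tested, 9 were lower and 0 higher (11 lower without pair 3), with a median of -0.40 and pair medians of -0.60, -0.79 and -0.28. FADS2, a desaturase that can also make the unusual fatty acid sapienate, had 1803, 2317 and 1548 CPM without and 811, 951 and 671 CPM with shear. It fell by more than 2-fold in each pair, and the groups did not overlap (-1.21 ± 0.12, adjusted p = 3.15e-06). FASN, the fatty acid synthase, had 1240.3, 1544 and 797 CPM in static cells and 630.3, 506 and 416 CPM in sheared cells (-1.17 ± 0.16, adjusted p = 0.00012). ACACA, which makes malonyl-CoA for it, had 108, 97.9 and 59.7 CPM in static libraries and 61.9, 53.7 and 38.5 CPM in their sheared partners (-0.77 ± 0.11). ACSS2, which makes acetyl-CoA from acetate, had 389, 343 and 252 CPM without and 243, 145 and 139.7 CPM with shear (-0.92 ± 0.13), and ACSL1, which activates long-chain fatty acids, fell by 0.98 ± 0.12 on the log2 scale.

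Ribosomal protein genes rose by a small and even amount. Of 78 genes of the cytosolic ribosome, 72 were higher and 0 lower, with a median of 0.53 and pair medians of 0.63, 0.40 and 0.55. Their share of all counts was 7.65, 7.80 and 7.80% in static libraries 1, 2 and 3 and 10.6, 10.0 and 9.27% in the sheared ones. With total counts 58 were higher (median 0.36), without pair 1 there were 45, and with the 24 h libraries alone 44. RPS6, a subunit of the small ribosomal particle, had 789, 844 and 901 CPM in static cells and 1292, 1225 and 1492 CPM in sheared cells (0.66 ± 0.10, adjusted p = 0.000283), and RPL14 of the large one had 1108, 1179 and 1339.8 CPM in static libraries and 1803, 1717 and 2364 CPM in their sheared partners (0.69 ± 0.11, adjusted p = 0.000384). Many ribosomal protein genes have near-identical pseudogenes, so reads could be split between them. These genes are short. With genes ranked by transcript length into 4 groups of 3683, the median log2 ratio of the shortest group was 0.107, 0.159 and 0.0506 in pairs 1, 2 and 3, against -0.0668, -0.173 and -0.00439 in the longest, and the part of length in the result was not tested.

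Of 34 ribosome biogenesis genes, 3 were higher and 1 lower (4 and 0 without pair 1, 2 and 2 without pair 2), against 9.13% and 8.07% of all tested genes, so the count higher was near the background. NPM1, a nucleolar chaperone, had 644, 699 and 721 CPM without and 883, 1117 and 1479 CPM with shear (0.72 ± 0.12, adjusted p = 0.000676), and FBL, which methylates ribosomal RNA, rose by 0.57 ± 0.11. POLR1A, the large subunit of RNA polymerase I, was the one that fell (-0.64 ± 0.16, adjusted p = 0.0107), a call lost without pair 1. Of 69 mitochondrial ribosomal proteins 9 were higher and 1 lower (5 higher without pair 2, 6 without pair 3), among the former MRPL12 (0.55 ± 0.11).

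Of 74 nuclear genes of the respiratory chain, which passes electrons to oxygen, 31 were higher and 0 lower, with pair medians of 0.30, 0.35 and 0.38. The rises were small (median 0.33), and the count was 18, 24 and 19 without pair 1, 2 and 3, 11 with total counts and 3 with the 24 h libraries alone. COX7B, a subunit of cytochrome oxidase, had 141, 202 and 257 CPM in static cells and 194, 297 and 402 CPM in sheared cells (0.56 ± 0.10, adjusted p = 0.000851). NDUFS8 of complex I had 159, 226 and 246 CPM in static libraries and 211, 326 and 389 CPM in their sheared partners (0.53 ± 0.10, adjusted p = 0.00204), and CYC1 of complex III rose by 0.60 ± 0.12. Pool 1 was the lowest in both groups for COX7B and NDUFS8, so the groups overlapped while each pair rose. COX7B, NDUFS8 and CYC1 were not called with no pool block, and NDUFS8 was not called with the 24 h libraries alone.

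Glycolysis rested on pair 3. Of 22 genes 6 were higher and 0 lower, with 4, 8 and 1 higher without pair 1, 2 and 3, and the pair medians were 0.07, 0.11 and 0.65. GAPDH had 6602, 6296 and 9139 CPM without and 8918, 6961 and 18233 CPM with shear (0.52 ± 0.16, adjusted p = 0.0329, and 0.246 without pair 3). Without pair 3 its log2 fold change was 0.31. Sheared library 3 held by far the most. LDHA, which turns pyruvate into lactate, had 4306, 4025 and 5854 CPM in static cells and 5331, 4349.8 and 9493 CPM in sheared cells (0.37 ± 0.12, adjusted p = 0.0435, and 0.284 without pair 3). Both calls were also lost without pair 1, with no pool block and with the 24 h libraries alone. The LDHA call was lost with total counts, and the GAPDH call was not made by DESeq2. LDHB, the subunit that favours the reverse reaction, had 217, 259 and 233 CPM in static libraries and 297, 337 and 503 CPM in their sheared partners and was called with all pairs and without pair 3 (0.65 ± 0.14 and 0.43). HK2, the first enzyme of glycolysis in many tumours, had 219, 145 and 202 CPM without and 293, 133 and 553 CPM with shear (adjusted p = 0.176), and the glucose carrier SLC2A1 had 427, 519 and 759 CPM in static cells and 403, 586 and 1706 CPM in sheared cells (adjusted p = 0.157). Neither passed, and in both the high value was that of sheared library 3.

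The tricarboxylic acid cycle and hypoxia lists were alike in this. Of 33 genes of the cycle and of pyruvate entry 6 were higher and 1 lower, and without pair 3 these were 0 (3 at an unadjusted p below 0.05) and 2. The pair medians were 0.01, 0.07 and 0.60. IDH1, the cytosolic isocitrate dehydrogenase, had 203, 252 and 217 CPM in static libraries and 123, 167 and 144 CPM in their sheared partners and fell in each pair without overlap (-0.64 ± 0.11, adjusted p = 0.00063). Of 25 hypoxia genes 4 were higher and 0 lower, and 2, 6 and 0 were higher without pair 1, 2 and 3 (2 at an unadjusted p below 0.05 in the last). IMPDH2, which makes guanine nucleotides, had 152, 216 and 189.7 CPM without and 244, 425 and 367 CPM with shear and rose without overlap (0.87 ± 0.11, adjusted p = 3.87e-05), 1 of 2 higher among 18 genes of nucleotide synthesis, of which 7 were higher without pair 1. Beside the lists of this paragraph, 9.13% of all tested genes were higher and 8.07% lower. The nucleotide synthesis count with all pairs was near that background.

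**Figure D3:**
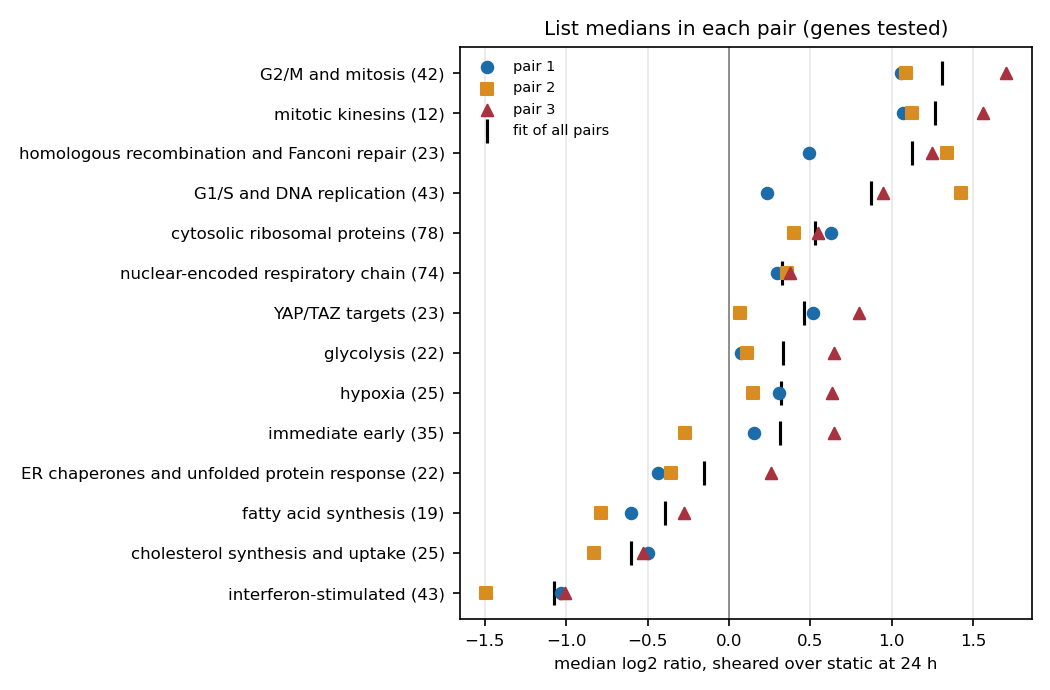
Median log2 ratio of sheared over static cells within each pair at 24 h for 14 gene lists, with the number of tested genes in brackets; the black tick is the median of the fitted log2 fold changes. Mitosis and kinesin genes lie above 1 in all 3 pairs and interferon-stimulated genes at or below -1, whereas glycolysis, hypoxia and immediate early genes lie highest in pair 3.

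Of 31 epithelial genes tested, 3 were higher and 5 lower (1 and 5 without pair 1, 6 and 5 without pair 2, 3 and 2 without pair 3). The count higher was near the 9.13% of all tested genes, and 8.07% of these were lower. KRT81, a hair keratin abundant in these cells, had 2854, 1784 and 4684 CPM in static cells and 7016, 4392 and 11840.0 CPM in sheared cells (1.31 ± 0.12, adjusted p = 2.44e-06). It rose by about the same ratio in each pair (1.30, 1.30 and 1.34 on the log2 scale), though the groups overlapped. The keratin genes KRT4, KRT20 and KRT17 are not on that list or in its counts. KRT4, a keratin of moist linings, had 0.958, 3.51 and 2.20 CPM in static libraries and 4.89, 19.5 and 29.4 CPM in their sheared partners and was among the largest rises (2.95 ± 0.24, adjusted p = 1.4e-06). KRT20, a keratin of gut lining, had 14.1, 17.3 and 13.2 CPM without and 5.57, 1.91 and 2.46 CPM with shear and fell without overlap (-2.26 ± 0.32, adjusted p = 0.000143). KRT17, which has close pseudogenes, had 16.2, 2.63 and 17.4 CPM in static cells and 52.5, 6.44 and 275 CPM in sheared cells, with by far the most in sheared library 3 (2.52 ± 0.59, adjusted p = 0.0294). Its log2 fold change was 3.10 without pair 1 and 1.58 without pair 3, and it was not called with the 24 h libraries alone or with no pool block. CDH1, the cadherin of epithelial junctions, had 365, 334 and 355 CPM in static libraries and 236, 227 and 293 CPM in their sheared partners and fell without overlap (-0.49 ± 0.11, adjusted p = 0.00577), a call not made with the 24 h libraries alone. MUC1, a cell surface mucin, fell by 0.87 ± 0.15 on the log2 scale.

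Mesenchymal genes were mixed. Of 21 tested, 5 were higher and 1 lower (9 and 0 without pair 2, 3 and 1 without pair 3), against 9.13% and 8.07% of all tested genes. The log2 fold changes of the list ran from -2.53 to 1.58, so its largest change was a fall. AXL, a receptor kinase, had 33.6, 31.5 and 44.9 CPM without and 59.1, 57.2 and 78.1 CPM with shear and rose without overlap (0.82 ± 0.12, adjusted p = 0.000187). TGFB2, a growth factor of the TGF-beta family, had 37.1, 22.5 and 32.3 CPM in static cells and 56.8, 35.6 and 80.3 CPM in sheared cells (0.87 ± 0.14, adjusted p = 0.000384). VIM, which encodes vimentin, had 271, 220.5 and 341 CPM in static libraries and 380.4, 138 and 734 CPM in their sheared partners. It went down in pair 2 and up in the other pairs and did not pass (adjusted p = 0.541), and without pair 3 its log2 fold change was -0.07.

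CAV1 (Gene ID 857), the main coat protein of caveolae, membrane pits that buffer tension, was among the steadiest rises. It had 256, 200.4 and 381 CPM without and 601, 536 and 893 CPM with shear, above the whole static range in each sheared library (1.29 ± 0.10, adjusted p = 8.52e-07; 1.34 without pair 3). It is 1 of 5 higher (4 without pair 3), with 0 lower, among 26 genes of membrane repair, against 9.13% and 8.07% of all tested genes. ANXA1 and ANXA2, annexins that gather at damaged membrane, rose by 0.63 ± 0.13 and 0.70 ± 0.16, more in pair 3 than in pair 2. Without pair 3 both log2 fold changes were 0.48. Of 27 targets of SRF and genes of the actin cytoskeleton 10 were higher and 1 lower, and 4 and 1 without pair 3. ACTG1, a cytoplasmic actin, had 2180.1, 2105 and 2932 CPM in static cells and 3424, 3018 and 6131 CPM in sheared cells (0.74 ± 0.12, adjusted p = 0.000485), and FHL2, a LIM-domain protein, had 70.5, 74.0 and 89.6 CPM in static libraries and 103, 114 and 177 CPM in their sheared partners (0.72 ± 0.11, adjusted p = 0.000246). Neither gene's groups overlapped. ZYX, which encodes the focal adhesion protein zyxin, was the one that fell (-0.55 ± 0.12, adjusted p = 0.00343). The ZYX call was not made with no pool block or with the 24 h libraries alone. Of 23 YAP and TAZ targets 10 were higher and 2 lower, with 5 higher and 2 lower without pair 1 and 5 and 3 without pair 3.

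Of 35 immediate early genes 6 were higher and 4 lower, against 9.13% and 8.07% of all tested genes, and the counts were 2 and 3 without pair 1, 10 and 2 without pair 2 and 2 and 5 without pair 3. SPRY4, an inhibitor of receptor kinase signals, had 105, 137 and 72.3 CPM without and 51.4, 43.0 and 38.6 CPM with shear (-1.21 ± 0.14, adjusted p = 1.3e-05), and DUSP6, the phosphatase of ERK, had 182, 215 and 205 CPM in static cells and 121, 103 and 119.5 CPM in sheared cells (-0.81 ± 0.13, adjusted p = 0.000316). Neither gene's groups overlapped. FOSL1, an AP-1 subunit, had 600.2, 560.4 and 986 CPM in static libraries and 971, 975 and 2294 CPM in their sheared partners and rose in each pair (0.90 ± 0.12, adjusted p = 8.24e-05), and MYC, a driver of growth, had 88.3, 71.1 and 73.9 CPM without and 139.9, 89.7 and 130.4 CPM with shear (0.61 ± 0.14, adjusted p = 0.00761).

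Inflammatory signals differed between pools. CXCL8, a chemokine for neutrophils, had 474, 186 and 873 CPM in static cells and 1269.7, 322 and 7172 CPM in sheared cells (1.74 ± 0.41, adjusted p = 0.0245), so the level in sheared library 3 was far above the rest, and without pair 3 its log2 fold change was 1.13. CXCL6, a related chemokine, had 40.3, 31.6 and 98.1 CPM in static libraries and 107, 39.6 and 419 CPM in their sheared partners (1.31 ± 0.25, adjusted p = 0.00475), and its log2 fold change was 0.90 without pair 3. Neither chemokine was called with no pool block, and CXCL8 was not called with the 24 h libraries alone. Of 27 NF-kB targets and cytokines 4 were higher and 1 lower, against 9.13% and 8.07% of all tested genes. The counts were 3 and 0 without pair 1, 5 and 0 without pair 2 and 2 and 2 without pair 3.

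Stress response genes were called in small numbers, beside 9.13% higher and 8.07% lower of all tested genes. EDEM1, which removes misfolded glycoproteins from the endoplasmic reticulum, had 234, 207 and 149 CPM without and 140.0, 115 and 98.9 CPM with shear and fell without overlap (-0.72 ± 0.10, adjusted p = 0.000119). It was 1 of 2 lower among 22 genes of that response, with 0 higher, and the count lower was 1 without pair 1 or pair 2 and 9 without pair 3. BAG3, a co-chaperone of the heat shock response, had 136, 195 and 118 CPM in static cells and 99.8, 101 and 74.9 CPM in sheared cells (-0.68 ± 0.11, adjusted p = 0.000567). It was the 1 lower among 20 heat shock genes, of which 1 was higher, and the list median was 0.24. SLC7A11, the cystine carrier, had 100.2, 56.4 and 44.0 CPM in static libraries and 53.4, 35.6 and 14.6 CPM in their sheared partners (-1.04 ± 0.16, adjusted p = 0.000246), and TRIB3, a target of ATF4, fell by 0.91 ± 0.17 on the log2 scale. Without pair 3 the log2 fold changes were -0.77 for SLC7A11 and -0.58 for TRIB3. Of 31 genes of the ATF4 response and tRNA synthetases, which include both, 2 were higher and 3 lower, with a median of 0.09. The ferritin genes FTH1 and FTL, which store iron, rose: FTH1 had 19482, 14410.4 and 18264 CPM without and 34221, 20796 and 24909 CPM with shear without overlap (0.60 ± 0.11, adjusted p = 0.00114), and FTL rose by 0.75 ± 0.13. Of 25 NRF2 targets, which include both ferritin genes and SLC7A11, 3 were higher and 2 lower, with a median of -0.16.

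Some of the largest changes fell outside these groups. MARCHF4, a ubiquitin ligase of membranes, had 1.68, 0.584 and 0.717 CPM in static cells and 5.03, 4.77 and 5.60 CPM in sheared cells (2.42 ± 0.29, adjusted p = 1.99e-05), and it rose without overlap. TCN1, which carries vitamin B12 in secretions, had 216, 294 and 165 CPM in static libraries and 40.5, 61.9 and 75.3 CPM in their sheared partners (-1.93 ± 0.19, adjusted p = 9.54e-06). SLC7A8, an amino acid carrier, had 7.30, 7.66 and 3.48 CPM without and 0.816, 1.85 and 0.691 CPM with shear (-2.47 ± 0.29, adjusted p = 2.08e-05). Both fell without overlap. FCGR2A, an antibody receptor known from myeloid cells, had 14.3, 26.2 and 18.6 CPM in static cells and 4.62, 3.46 and 4.91 CPM in sheared cells (-2.16 ± 0.27, adjusted p = 3.54e-05). PTPRC and CD3E, which define haematopoietic cells, were below 1 CPM in each library; 9 of the 12 genes of that list were, and its summed level, mostly that of CD68 (63.3 to 105 CPM), was 66.8 to 110.3 CPM in the static and 75.5 to 99.1 CPM in the sheared libraries. COL2A1, a cartilage collagen, had 19.6, 41.0 and 15.6 CPM in static libraries and 2.31, 7.15 and 8.90 CPM in their sheared partners and HAPLN1, which links matrix sugars, had 16.9, 15.4 and 23.3 CPM without and 5.23, 5.01 and 4.53 CPM with shear. Both fell without overlap (-2.08 ± 0.32 and -1.89 ± 0.20), COL2A1 least in pair 3, without which its log2 fold change was -2.72. C2CD4A fell by 2.54 ± 0.31 on the log2 scale, though its levels differed between pools.

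RNAs known to stay in the nucleus were measured in these cytosolic libraries too. NEAT1, which builds nuclear paraspeckles, had 139.9, 76.3 and 135 CPM by total counts in static libraries 1, 2 and 3 and 144, 41.9 and 292 CPM in the sheared ones, and it did not pass. MALAT1, a long RNA of nuclear speckles, had 24.7, 13.7 and 10.8 CPM in static cells and 29.9, 7.15 and 68.4 CPM in sheared cells, with the highest value in sheared library 3 and the lowest in sheared library 2. It did not pass (adjusted p = 0.478), and without pair 3 its log2 fold change was -0.24. Of 7 tested nuclear-retained RNAs 1 was higher and 1 lower (0 lower once any 1 pair was left out, 2 higher without pair 2), MEG3 was at 0 throughout, and the summed level of the list was 231 to 345 CPM in the static and 189.7 to 442 CPM in the sheared libraries. The part of nuclear RNA in the rises that rest on pair 3 was not tested. GAS5, on this list but also exported and a host of small nucleolar RNAs, rose by 0.64 ± 0.13, and TUG1 fell by 0.40 ± 0.13 on the log2 scale, a call lost without any 1 of the 3 pairs. For fibroblast and endothelial cells, 6 of 12 markers were under 1 CPM throughout and the summed level was 111 to 133 CPM in the static and 67.6 to 106 CPM in the sheared libraries; for androgen-dependent prostate cells it was 587 to 667 CPM in the static and 304 to 463 CPM in the sheared libraries, with 3 of 8 tested markers lower and 0 higher (1 lower without pair 1 or pair 3).

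The shear effect at 24 h was set against that at 12 h and at 3 h, which had their own pools and controls. The 3 h libraries carried another batch date, so time and batch date cannot be told apart there, whereas 12 h and 24 h shared one. The effect differed from that at 12 h for 101 genes (0.665%), 89 (0.586%) more positive and 12 (0.079%) more negative at 24 h. It differed from that at 3 h for 895 genes (5.89%), 468 (3.08%) more positive and 427 (2.81%) more negative. Without pair 3 of 24 h the counts were 96 and 824, with 75 and 681 genes in both, and without pair 1 the first was 185. With no pool block only 1 gene differed from 12 h and 258 from 3 h.

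For many mitosis genes the effect was larger at 24 h than at 12 h. Of the 42 G2/M genes 25 had a more positive effect at 24 h than at 12 h, and 22 of these were also found without pair 3; against 3 h it was 42 of 42. The list medians were -0.41 at 3 h, 0.31 at 12 h and 1.31 at 24 h. For CDK1 the log2 fold changes were -0.08, 0.67 and 2.22, and the difference from 12 h was 1.55 ± 0.23 (adjusted p = 0.00469). For MKI67 they were -0.82, -0.12 and 1.10, and the difference from 12 h was 1.22 ± 0.22 (adjusted p = 0.0142). Of 12 kinesins 9 differed from 12 h. Of the 43 G1/S genes 5 differed from 12 h, among them RRM2 (1.47 ± 0.27, adjusted p = 0.0238), and 20 from 3 h.

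Other groups had moved by 12 h. The medians at 3 h, 12 h and 24 h were 0.14, 0.56 and 0.53 for ribosomal proteins and 0.05, -0.54 and -0.60 for cholesterol genes. No member of either list, nor of the fatty acid list, passed the test of a difference between 24 h and 12 h (edgeR, and 0 by DESeq2). At an unadjusted p below 0.05 there were 1 ribosomal, 4 cholesterol and 0 fatty acid genes, with more negative effects at 24 h. For interferon-stimulated genes the medians were -0.03, -0.60 and -1.08, and 2 of 43 differed from 12 h (8 without pair 3), IFIT1 (-1.17 ± 0.18, adjusted p = 0.00469) and ISG15 (-1.06 ± 0.17, adjusted p = 0.00644). Against 3 h 29 differed.

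**Figure D4:**
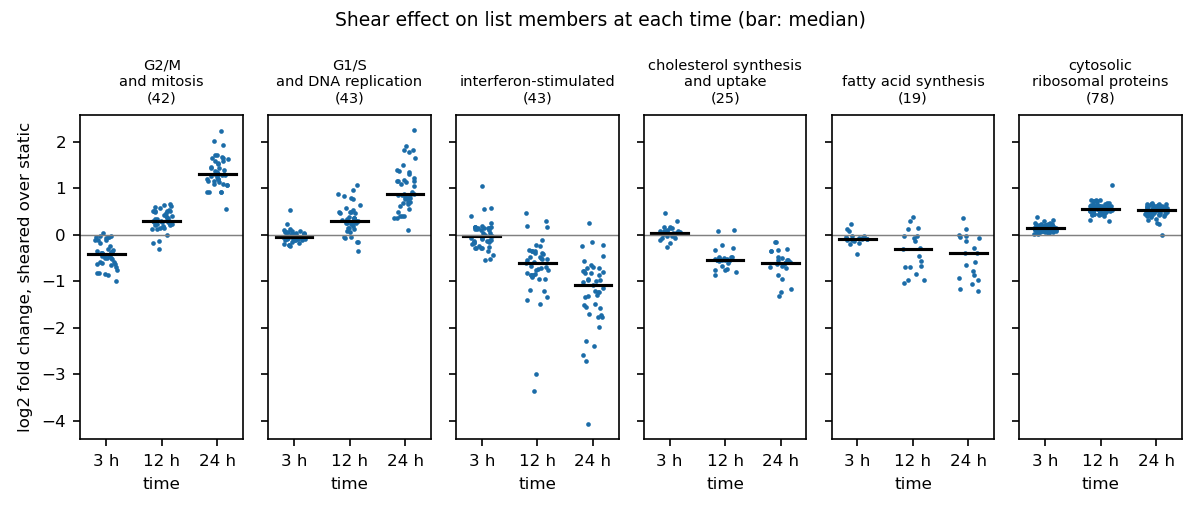
Fitted log2 fold change of sheared over static cells at 3 h, 12 h and 24 h (x axis) for the members of 6 gene lists; each point is a gene and the bar is the median. Mitosis genes move from below 0 at 3 h to a median of 1.31 at 24 h, and ribosomal protein genes lie at about the same level at 12 h and 24 h.

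MUC2, a gel-forming mucin, went opposite ways at the later times. It rose at 12 h (1.20) and fell at 24 h (-0.71 ± 0.14, adjusted p = 0.00161), with 28.6, 69.0 and 60.9 CPM in static libraries and 17.3, 47.9 and 32.9 CPM in their sheared partners, and the difference was -1.91 ± 0.21 (adjusted p = 0.000713), among the smallest p-values of that contrast. The 24 h groups overlapped, and the fall was not called with no pool block. In the authors' DESeq2 table for 24 h its adjusted p was 0.142. TRIM29, a TRIM protein of epithelia, had effects of 1.10 at 3 h and 1.19 at 12 h and of 0.00 at 24 h, where it had 149.5, 119.8 and 149 CPM without and 125, 140.3 and 154 CPM with shear and did not pass. The difference from 12 h was -1.19 ± 0.17 (adjusted p = 0.00469).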

How the data were processed

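RNA-seq of the cytosolic RNA of PC-3 cells gave 18 libraries in 6 groups of 3, by treatment (sheared or static) and time (3 h, 12 h or 24 h) as the labels give them. Per the submitters' processing notes, the authors used STAR, GRCh38.p13 and DESeq2; their versions, and how reads were counted and on which strand, are not given there. Raw counts for 28395 NCBI Gene IDs were deposited without normalization. The authors' table for 24 h gives, as log2, the change in sheared cells and, per the file headers, p-values and adjusted p-values.

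Genes were kept by filterByExpr (minimum count 10, minimum total 15), which left 15189, of which 15076 had a RefSeq symbol. Counts were tested with edgeR 4.0.16 in R 4.3.3 (TMM, legacy quasi-likelihood F test, robust) in 1 model of 18 libraries with 9 pools as blocks, a shear effect for each time and 6 residual degrees of freedom, and p-values were adjusted by Benjamini-Hochberg at 0.05. Differences between times were contrasts of that model. The standard error was taken from the log2 fold change and its F value. CPM of single genes use TMM factors, summed lists and markers use total counts, and the prior count for log2 CPM was 2. Depth at 24 h was 16576539 to 21976621 counts, and low counts carry counting error beside the spread between pools.

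Pairing follows the series' design, in which a replicate number marks 1 pool. As a check, deviations from the group mean were correlated between sheared and static libraries. The values were 0.379 to 0.504 for libraries of the same number and -0.296 to -0.0924 for others. Deviations cancel out within a group, so positive values for partners push the others down, and the negative values are no separate check. Replicates of a 24 h group differed by more than counting error, and an exact permutation of 3 against 3 cannot go below p = 0.1. At 3 h, columns were matched to samples by time and letter. The fit was tested on simulated data in which 200 genes were changed. It recovered 42.7% of the 1.5-fold, 80.6% of the 2-fold and 88.9% of the 4-fold changes. Of its 147 calls 9 were false, so changes near 1.5-fold are often missed. Alternatives were edgeR with DESeq2 size factors or total counts, DESeq2 1.42.0, no pool block, no filter, the 24 h libraries alone and leaving out pairs.

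The libraries, gene lists and rules were chosen with earlier results of these data known. Genes named are the 15 largest rises and falls (same direction in 3 pairs, mean log2 CPM of at least 1), the 10 largest called with and without replicate 3, the 6 genes of smallest p in each contrast of times, the first 5 members by p of a described list and a short list always named; the text gives those that describe a group, and some are not reported here. Promoters came from RefSeq (GRCh38.p14), 250 bases before the start; a pair of GAAA spaced by 2 bases and TCACNCCAC were added to the motif search after the counts were seen, and TCACNCCAC was in 1 of 18 cholesterol gene promoters. Transcript lengths came from GENCODE 29 for 97.0% of tested genes.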

Additional observations from a re-analysis of the deposited data

Results flagged for a closer look

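For 27 genes described here the shear effect at 24 h differed from that at 12 h by a test of the difference itself (edgeR, adjusted p below 0.05); each value is the log2 fold change at 24 h minus that at 12 h. Among mitosis genes it was 1.55 for CDK1, 1.37 for UBE2C, 1.23 for CDCA8, 0.81 for CENPA, 1.34 for AURKB, 1.32 for NUF2, 0.86 for CCNB1, 1.22 for MKI67, 0.92 for PLK1 and 1.66 for SKA1. Among kinesins it was 1.17 for KIF14, 1.15 for KIFC1 and 1.11 for KIF2C, and among genes of DNA synthesis and repair 1.47 for RRM2, 0.93 for TK1, 1.02 for TYMS, 1.30 for PRIM1, 1.14 for BRIP1, 1.68 for MND1 and 2.10 for HELLS. It was 1.41 for FAM72A, which has near-identical copies that can share reads, 1.24 for FAM83D, a spindle protein, and 2.09 for KRT4. More negative effects at 24 h were those of IFIT1 (-1.17), ISG15 (-1.06), MUC2 (-1.91) and TRIM29 (-1.19). Without pair 3 of 24 h the adjusted p was above 0.05 for TYMS (0.0818), PRIM1 (0.0795), MND1 (0.105) and HELLS (0.0644). The 6 smallest p-values against 3 h, where another batch date applies, belonged to CDCA8 (2.45), KIF14 (2.17), UBE2C (2.06), FAM72A (2.38), CENPA (1.89) and FAM83D (2.34), each the log2 fold change at 24 h minus that at 3 h.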

How the results depend on the processing

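Without the replicate block, 593 genes were higher and 320 lower (124 by at least 2-fold), 1 differed between 24 h and 12 h and 258 between 24 h and 3 h; 0 respiratory chain and 1 glycolysis gene were higher and 9 cholesterol genes lower. With the 24 h libraries alone the calls were 481 higher and 280 lower (124 by at least 2-fold), with 17 G1/S, 10 recombination, 44 ribosomal, 3 respiratory chain and 1 glycolysis gene higher and 11 cholesterol genes lower. With total counts they were 782 higher (222 by at least 2-fold) and 2410 lower (403), with 11 respiratory chain genes higher. DESeq2 found 194 differences from 12 h. With no filter on low counts there were 323 from 12 h and 1513 from 3 h, and 10 glycolysis genes were higher. Leaving out 1 pair gave 941 to 1484 higher and 609 to 1396 lower (278 to 403 and 123 to 413 by at least 2-fold), 96 to 185 and 824 to 1209 differences from 12 h and 3 h, 20 to 38 G1/S, 45 to 67 ribosomal, 18 to 24 respiratory chain and 1 to 8 glycolysis genes higher, and 14 to 19 cholesterol genes lower. With sheared library 3 and the replicate block both left out, 280 were higher (138 by at least 2-fold) and 172 lower (77), 1 and 236 differed from 12 h and 3 h, 18 G1/S, 11 recombination, 15 ribosomal, 0 respiratory chain and 0 glycolysis genes were higher, and 7 cholesterol and 5 fatty acid genes were lower. For these counts the cause was not tested.

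Of the 99 called genes described here, none changed direction in any of these alternatives; 78 kept their call without the block, 88 with the 24 h libraries alone, 93, 96 and 96 without pair 1, 2 and 3, and 64 with both the block and sheared library 3 left out. Of the 6 uncalled genes, PCNA, HK2, SLC2A1 and MALAT1 were called with no filter, PCNA and SLC2A1 without pair 1 and HK2 and VIM without pair 2. Among uncalled genes, VIM ranged from -0.069 without replicate 3 to 0.80 without replicate 2 and was -0.10 with that library and the block left out, SLC2A1 went to -0.20 in the latter, and MALAT1 ranged from -0.24 without replicate 3 to 1.45 without replicate 2. TRIM29, with a log2 fold change near 0, went to -0.16 with total counts and -0.00309 with no filter, ranged from -0.11 without replicate 2 to 0.13 without replicate 1 and was -0.071 with the library and the block left out. G2/M genes were higher in 42 of 42 cases under all alternatives but the one with no block (41) and the one with neither the block nor sheared library 3 (32). Depth limits genes near 1 CPM, which rest on few counts a library.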
